A study of Mus musculus with 8 samples.

Results

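Immediate-early genes are the genes that a cell switches on first after a stimulus, without making new protein beforehand. The 10 genes described here are Fos, Fosb, Jun, Junb, Jund, Egr1, Ier2, Ier3, Nr4a1 and Atf3. They were chosen by symbol from a list of immediate-early stress genes, and all 10 were found among the 22520 genes of the RNA sequencing table. Of these, 9 passed the filter on low values and were tested, and Fosb did not pass it. The comparison was between 4 LRP1 knockout (LRP1 KO) and 4 wild-type (WT) libraries of microvascular endothelial cells (ECs) from C57BL/6 mice at postnatal day 14.

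LRP1 is a large endocytic receptor, related to the LDL receptor, that also takes part in signaling. According to the study's methods, LRP1 KO mice carried floxed LRP1 alleles (LRP1 f/f) and Cdh5-CreER, a Cre recombinase that is driven by the VE-cadherin promoter and needs tamoxifen to act. WT mice were Cre-negative littermates, so the controls carried the floxed alleles as well, and no library came from mice without them. ECs were selected with beads carrying an antibody against PECAM-1, and each library is labelled as mixed cells of heart, liver and lung. The study's text instead treats liver ECs apart from heart and lung ECs, so which organs a given library holds is not settled. Nothing in the labels ties a library to 1 animal or says whether animals were pooled, so the p-values measure only the spread between these libraries.

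The values are taken here as FPKM (fragment counts corrected for transcript length and library size), a unit the table does not name, and had been quantile normalized across libraries before deposit, so that every library had nearly the same sum (503571 to 504112) and depth is unknown. Lrp1, the targeted gene, had 103 to 140 FPKM in the WT libraries. The LRP1 KO libraries had 2.79 to 7.72 FPKM, and their mean was 3.99% of that in WT. The labelled cell type was only partly matched by its markers. Endothelial markers were present in WT, with Pecam1 at 6.80 to 8.76 FPKM and Cdh5 at 8.87 to 11.2 FPKM, but the summed FPKM in WT was 192 to 205 over the 20 endothelial markers and 2608 to 3752 over the 12 fibroblast markers, which include the abundant Col1a1 at 395 to 565 FPKM. LRP1 KO library 4 stood apart from the other 3, since the endothelial sum was 691, 437 and 510 in libraries 1 to 3 and 201 in library 4. In such bulk libraries, a change in the share of a cell type and a change in RNA per cell cannot be told apart.

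Immediate-early genes are held ready in resting cells. Kinases of the MAPK family activate proteins already present on their promoters, such as serum response factor with its partners and CREB, and transcription starts within minutes. Most of the products are themselves transcription factors. Fos and Fosb must pair with a Jun protein to bind DNA, while Jun, Junb and Jund can pair with each other or with a Fos protein, and such pairs are called AP-1. Atf3 belongs to the same leucine-zipper class and can pair with Jun proteins. Egr1 is a zinc-finger transcription factor, Nr4a1 an orphan nuclear receptor, Ier2 a nuclear protein and Ier3 a short protein linked to cell survival. In ECs these genes are known to respond to shear stress, growth factors and inflammatory signals, and in many tissues they are known to be induced while cells are dissociated.

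Jun and Atf3 were the members with a called difference, and the bases just before their transcription starts are printed here beside those of Fos, which was not called, to show the motifs found in each. TGACG is in both Atf3 and Fos, and TGACATCA is in Jun. The sequences are from RefSeq on GRCm38.p6 and read 5′ to 3′ on the strand of the gene, and each covers the 150 bases that end just before the start. Capitals mark TGACATCA in Jun and TGACG, on either strand, in Atf3 and Fos. The Jun stretch is chr4:95052223-95052372 on the minus strand, the Atf3 stretch is chr1:191183334-191183483 on the minus strand, and the Fos stretch is chr12:85473740-85473889 on the plus strand.
Jun: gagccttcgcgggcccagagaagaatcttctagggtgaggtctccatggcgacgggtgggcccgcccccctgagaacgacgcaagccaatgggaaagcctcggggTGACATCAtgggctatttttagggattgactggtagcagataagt
Atf3: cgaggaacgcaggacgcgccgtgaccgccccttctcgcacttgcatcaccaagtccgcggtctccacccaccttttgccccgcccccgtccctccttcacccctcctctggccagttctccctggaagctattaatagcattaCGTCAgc
Fos: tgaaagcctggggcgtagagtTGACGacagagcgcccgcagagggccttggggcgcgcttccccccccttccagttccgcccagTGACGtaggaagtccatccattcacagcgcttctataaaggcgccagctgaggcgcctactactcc

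Motifs were searched on both strands in windows from 250 bases before to 50 bases after each start. Such a window was found for 8 of the 10 members, all but Egr1 and Ier2. TGACATCA, a sequence that Jun with an ATF partner is known to bind, was found in the Jun window with its first base 45 bases before the start. It was found in 1 of the 8 windows and in 3.62% of all 32851 windows. TGACG, the core of the element bound by CREB and ATF proteins, was found in 5 of the 8 windows (Fos, Fosb, Junb, Nr4a1 and Atf3) and in 20.8% of all windows. In Atf3 it lay 7 bases before the start on the other strand, and in Fos it occurred 129 and 66 bases before the start. The full element TGACGTCA, which holds TGACG, was in 0 of the 8 windows (1.79% of all), as were the AP-1 site TGACTCA (5.20% of all) and the CArG box that serum response factor binds (1.63% of all). These matches describe the letters in the windows and do not show which proteins were bound. Bases beyond the windows, and those of Egr1 and Ier2, were not searched, so a motif missing here may lie elsewhere near the gene.

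Jun and Atf3 rose in LRP1 KO, and the other 7 tested members did not pass the test. Jun rose from 11.7 ± 0.356 to 19.3 ± 1.65 FPKM and Atf3 from 4.46 ± 0.997 to 8.27 ± 0.887 FPKM (SD, n = 4 each). A gene was called at a limma adjusted p under 0.05, with the p-values adjusted over all 11389 tested genes. Of the 9 tested members, 2 were called higher, where 6.27% of all tested genes were, and 0 were called lower, where 7.31% of all tested genes were. None of the members passed with a 2-fold difference as well, against 1.62% of all tested genes. At an unadjusted p under 0.05, 3 members passed, Jun, Atf3 and Ier3. The median log2 fold change of the 9 tested members was 0.10, against -0.01 over all tested genes. Estimates were above 0 for 6 of them and below 0 for 3. The groups did not overlap for 2 of the 10 members, both higher in LRP1 KO, against 8.84% of tested genes that were higher without overlap and 10.7% that were lower without overlap. The members' share of higher calls rests on these 2 genes.

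**Figure D1:**
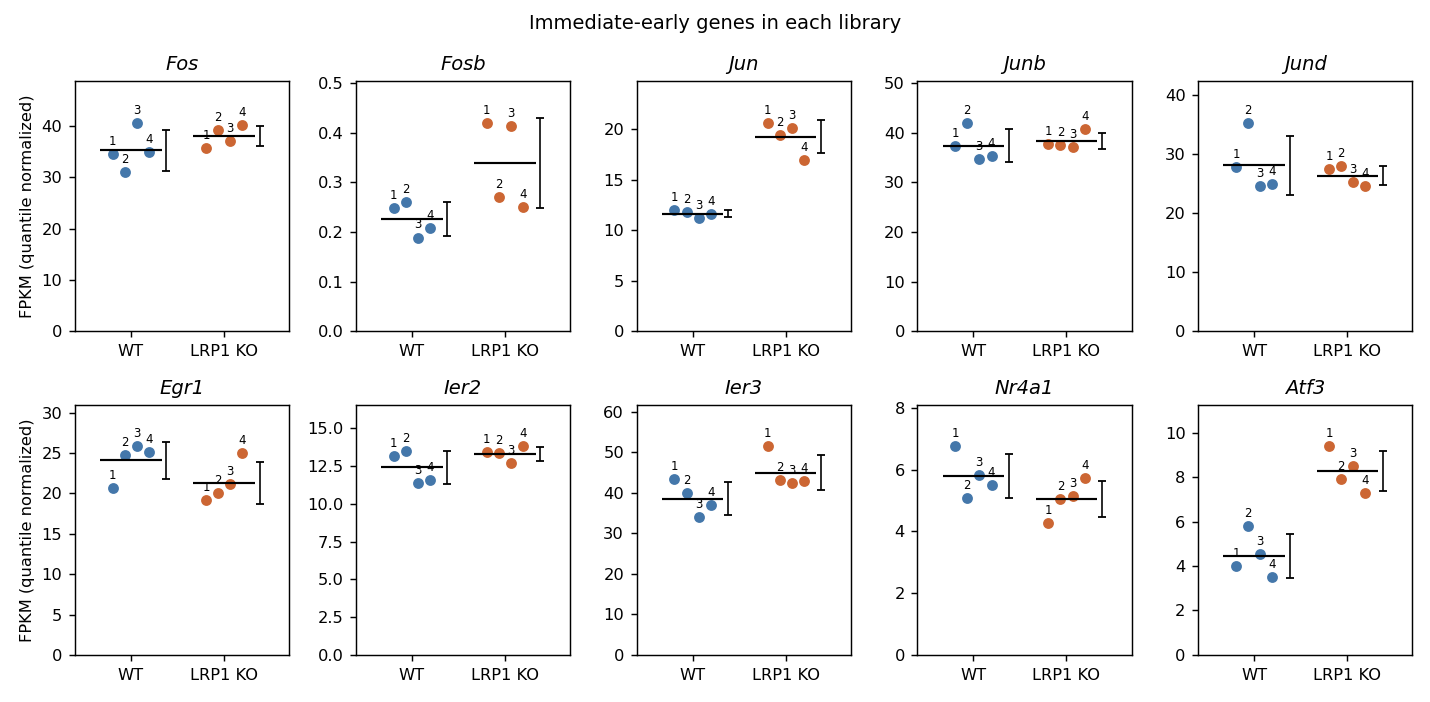
FPKM of each of the 10 immediate-early genes in the 4 WT (blue) and 4 LRP1 KO (orange) libraries, with library numbers, the group mean as a line and the SD as a bar, each panel on its own linear axis from 0. The Jun and Atf3 panels are the ones in which every LRP1 KO library lies above every WT library.

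Jun, the AP-1 subunit that is itself activated by the kinase JNK, lay at 12.0, 11.8, 11.2 and 11.6 FPKM in WT libraries 1 to 4. Its LRP1 KO values were 20.7, 19.4, 20.1 and 16.9 FPKM. The WT libraries were very close to each other and the groups were well apart, with library 4 the lowest of LRP1 KO. The ratio of the means was 1.65, and the exact two-sided permutation test over the 70 possible assignments gave p = 0.0286, the smallest it can give with n = 4 each. On the log2(FPKM + 1) scale the difference was 0.68 (SE 0.07, 95% interval 0.52 to 0.83; limma adjusted p = 0.000916). It was called in all 14 alternative analyses, with estimates of 0.64 to 0.73 and adjusted p-values of 0.000333 to 0.0105. Without LRP1 KO library 4 it was 0.73. The gene (ENSMUSG00000052684) lies at chr4:95049034-95052222 on the minus strand of GRCm38 and overlaps the antisense gene Junos. Junos was not analysed here, and whether the counting used strand is not stated, so reads from Jun and Junos cannot be told apart.

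Atf3, a leucine-zipper factor known to be induced by many kinds of stress, lay at 4.01, 5.81, 4.53 and 3.49 FPKM in WT. The LRP1 KO libraries held 9.39, 7.91, 8.49 and 7.30 FPKM. The lowest LRP1 KO library, again library 4, was above the highest WT library. The spread in WT was wider than for Jun, with a coefficient of variation of 22.3% against 3.05%. The ratio of the means was 1.85 (exact permutation p = 0.0286). The log2 difference was 0.78 (SE 0.13, 95% interval 0.49 to 1.07; limma adjusted p = 0.00839). It was called in all 14 alternatives, at 0.69 to 0.89 with adjusted p-values of 0.0038 to 0.0288. On the log2(FPKM + 1) scale the change of a gene at this low level is understated. Atf3 spans chr1:191170296-191218039 on the minus strand of GRCm38 in GENCODE M21, and the RefSeq start used for the printed sequence lies inside that span. A small RNA gene on the plus strand, Gm24748, also lies within it and was not analysed here, so reads of the overlap could have been counted for either.

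Junb and Jund, the 2 relatives of Jun, were not called. Junb, which can oppose Jun at some promoters, lay at 37.3, 42.0, 34.7 and 35.3 FPKM in WT. LRP1 KO gave 37.8, 37.5, 37.2 and 40.8 FPKM. The ranges overlapped almost fully, and the log2 difference was 0.04 (95% interval -0.12 to 0.19; limma adjusted p = 0.719). Jund, the family member that is usually present in resting cells, lay at 27.7, 35.3, 24.6 and 24.9 FPKM in WT. The values in LRP1 KO were 27.4, 27.9, 25.3 and 24.6 FPKM. WT library 2 was far above the rest, and the estimate of -0.08 (95% interval -0.33 to 0.16; limma adjusted p = 0.631) changed sign to 0.03 without that library. For both genes the intervals exclude a difference as large as the estimate for Jun. Junb shares its locus with Prdx2, an abundant gene on the other strand with 175 to 219 FPKM in WT against 196 to 242 FPKM in LRP1 KO, so reads of the overlap could have been counted for either. The gene antisense to Jund, Gm11175, was listed at 0 in all libraries.

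The make-up of the Jun family differed between the groups. If the values are corrected for length, as they are taken to be here, levels can be added across genes. Jun gave 15.6%, 13.3%, 15.9% and 16.2% of the summed FPKM of Jun, Junb and Jund in WT. In LRP1 KO it gave 24.1%, 22.9%, 24.3% and 20.6%. Every LRP1 KO library had a higher share than every WT library, although Junb was still the most abundant of the 3 in every library, at 47.1% to 49.2% in WT and 44.1% to 49.6% in LRP1 KO. Jund gave 34.6% to 39.6% in WT and 29.9% to 32.9% in LRP1 KO. The family sum was 70.5 to 89.2 FPKM in WT and 82.3 to 85.9 FPKM in LRP1 KO, ranges that overlapped. These sums and shares were formed after the values of the members had been seen and are given without a test.

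**Figure D2:**
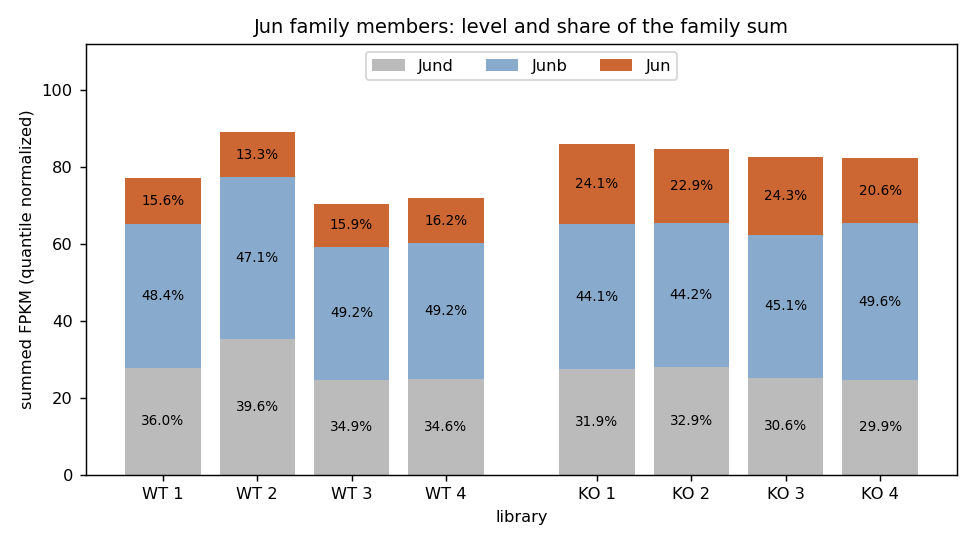
Summed FPKM of Jund (grey), Junb (blue) and Jun (orange) in each WT and LRP1 KO library, with each gene's percent of the sum printed in its bar segment. The Jun segment takes 13.3% to 16.2% of the bar in WT and 20.6% to 24.3% in LRP1 KO.

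The Fos genes, which supply the partners for Jun, gave no call. Fos, the classical marker of recent stimulation, lay at 34.6, 31.0, 40.6 and 35.0 FPKM in WT. Its LRP1 KO values were 35.7, 39.3, 37.1 and 40.1 FPKM, within the range of WT. The log2 difference was 0.11 (95% interval -0.07 to 0.29; limma adjusted p = 0.363), and the interval excludes the estimate for Jun. Fosb, its close relative, was near the lower end of the table at 0.248, 0.261, 0.189 and 0.208 FPKM in WT. LRP1 KO gave 0.420, 0.271, 0.413 and 0.251 FPKM. In 3 of the 4 LRP1 KO libraries Fosb exceeded the highest WT library, and the exact permutation test gave p = 0.0571 with n = 4 each. Without the filter on low values its log2 difference was 0.12 (limma adjusted p = 0.145).

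The ratio of Jun to Fos was 0.334 ± 0.0444 in WT and 0.509 ± 0.0679 in LRP1 KO (SD, n = 4 each). The groups did not overlap in this ratio, with 0.275 to 0.382 in WT and 0.422 to 0.579 in LRP1 KO. The ratio of Atf3 to Jun, the 2 members that rose, was 0.383 ± 0.0845 in WT and 0.429 ± 0.0195 in LRP1 KO, and the groups overlapped. Over the families as a whole, the ratio of the summed Jun genes to the summed Fos genes (Fos, Fosb, Fosl1 and Fosl2) was 1.29 ± 0.232 in WT and 1.29 ± 0.0474 in LRP1 KO. Fos gave 58.3% of the Fos family sum in both groups. The ratios, like the shares, were chosen after seeing the values and carry no test.

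Of the 4 members outside the leucine-zipper class, none passed the test, and their estimates lay on both sides of 0. Egr1, a zinc-finger factor that responds to shear stress and growth factors, lay at 20.6, 24.8, 25.8 and 25.1 FPKM in WT. In LRP1 KO it lay at 19.1, 20.0, 21.2 and 25.0 FPKM. Of the LRP1 KO libraries, 1 to 3 lay at the low end or below WT and library 4 lay among WT, and the log2 difference was -0.17 (95% interval -0.39 to 0.05; limma adjusted p = 0.245). The adjusted p was lowest without LRP1 KO library 4, at 0.0627, in a range of 0.0627 to 0.483 over the alternatives.

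Nr4a1, a nuclear receptor without a known circulating ligand, lay at 6.76, 5.08, 5.82 and 5.51 FPKM in WT. The LRP1 KO libraries held 4.28, 5.06, 5.13 and 5.73 FPKM. The groups overlapped, and the log2 difference was -0.17 (95% interval -0.39 to 0.06; limma adjusted p = 0.270). Egr1 and Nr4a1 thus had negative estimates, opposite in sign to those of Jun and Atf3, and neither passed.

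Ier3, a stress-inducible protein linked to cell survival, had the highest mean of the members in both groups, with 43.5, 40.0, 33.9 and 36.9 FPKM in WT, although Junb exceeded it in WT libraries 2 and 3 and Fos in WT library 3. The values in LRP1 KO were 51.4, 43.1, 42.4 and 42.9 FPKM. Library 1 was the highest of both groups, while the other 3 LRP1 KO libraries lay within the range of WT. The log2 difference was 0.22 (95% interval 0.01 to 0.42), with an unadjusted limma p of 0.0383 and an adjusted p of 0.127 (0.0632 to 0.299 over the alternatives). Ier2, a nuclear immediate-early protein, was nearly level at 13.2, 13.5, 11.4 and 11.6 FPKM in WT. LRP1 KO gave 13.4, 13.4, 12.7 and 13.8 FPKM, and the log2 difference was 0.10 (95% interval -0.06 to 0.25; limma adjusted p = 0.354).

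**Figure D3:**
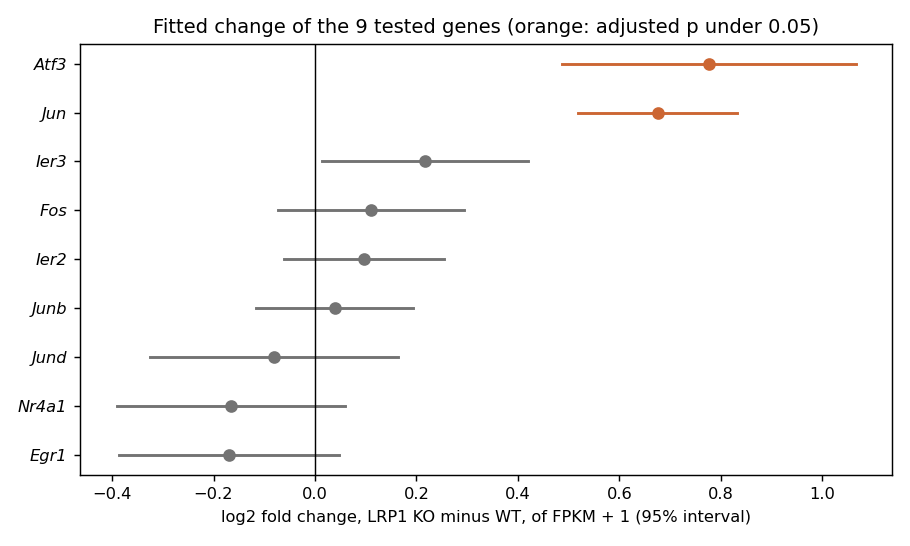
Log2 fold change of FPKM + 1, LRP1 KO minus WT, for the 9 tested immediate-early genes, with 95% intervals as bars, orange where the limma adjusted p was under 0.05. Atf3 at 0.78 and Jun at 0.68 lie to the right of the other 7, which run from -0.17 to 0.22.

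The order of the levels placed the members in steps. In WT the mean FPKM ran from Ier3 at 38.6 through Junb (37.4), Fos (35.3) and Jund (28.1) to Egr1 (24.1), and each gene overlapped its neighbour in this run. A step separated these from Ier2 (12.4) and Jun (11.7), which overlapped each other, and another separated Jun from Nr4a1 (5.79) and Atf3 (4.46). Fosb came last at 0.226. Among all genes with a WT mean of at least 1 FPKM, Ier3 was at percentile 81.0 and Atf3 at percentile 23.1. In LRP1 KO, Jun moved above Ier2, from which it was then separate, and overlapped its new neighbour Egr1. Atf3 moved above Nr4a1 and was separate from it, with 7.30 to 9.39 FPKM against 4.28 to 5.73.

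The members did not vary as 1 block between libraries of the same group. After each group's mean was subtracted, 19 of the 36 pairs of tested members had a positive and 17 a negative Pearson correlation over the 8 libraries, with a median of 0.05. The range was from -0.823 for Jun and Egr1 to 0.868 for Junb and Ier2. Junb, Ier2 and Jund were closest to the mean of the 9 tested members, with correlations of 0.880, 0.877 and 0.859, and Fos ran against it at -0.569. Each member is itself part of that mean, which raises its correlation with it. The correlation of Jun with that mean was 0.07. The genes outside the members that were most like their mean were Fam53a (0.985), Mfsd5 (0.975), Zfp628 (0.973), Rnf5 (0.970) and Bloc1s3 (0.969), none of which was called. These correlations are descriptions, and WT library 2, high in Junb, Jund and Atf3, weighs in several of them. The mean of the members deviated by -0.071 to 0.083 in WT but only by -0.017 to 0.013 in LRP1 KO. Correlations with that mean therefore rest mostly on the WT libraries.

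Related genes were examined in 6 lists fixed by function. They hold 99 measured genes, of which 91 were tested and 15 called, 9 higher and 6 lower, where 6.27% of all tested genes were called higher and 7.31% lower. Only Gadd45g, Plk2, Myc and Mapk3 among the 15 were called in all 14 alternatives. The other 11 lost the call in at least 2 of them, with highest adjusted p-values of 0.0561 to 0.114. Leaving out 1 library took the count from 15 to 8, 5, 11 and 13 (WT libraries 1 to 4), and to 4, 6 and 5 (LRP1 KO libraries 1 to 3). It was 33 without LRP1 KO library 4.

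**Figure D4:**
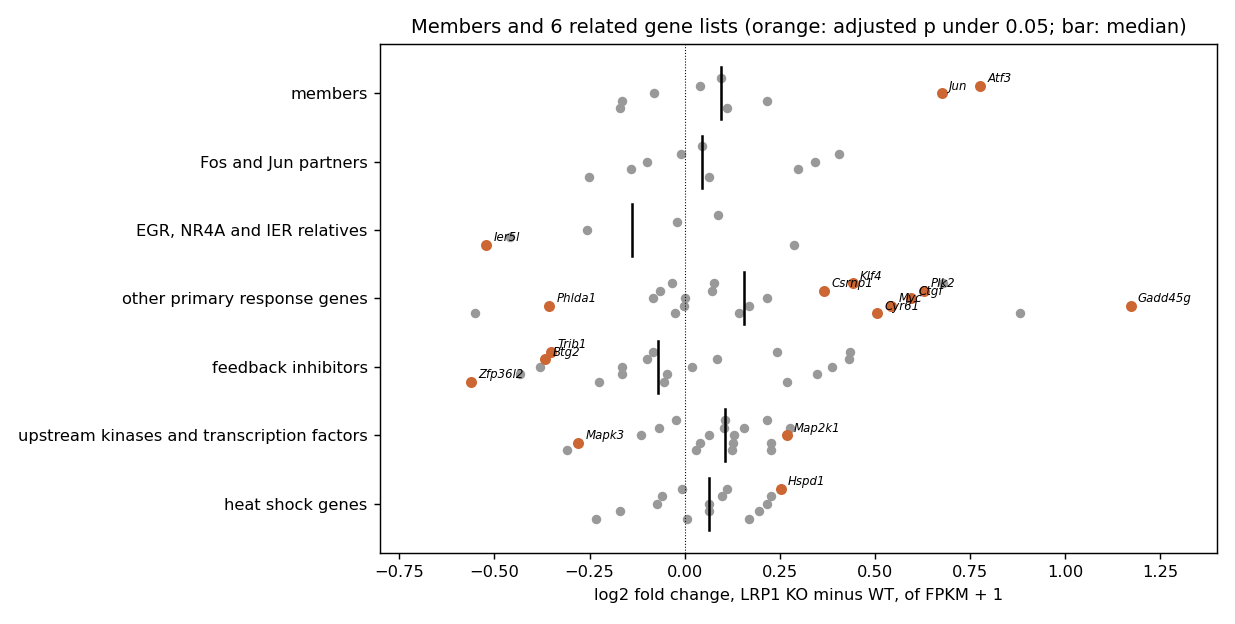
Log2 fold change of FPKM + 1, LRP1 KO minus WT, of the tested immediate-early genes and of the tested genes in 6 related lists, 1 point per gene, orange and named where the limma adjusted p was under 0.05, with the median of each row as a bar. The medians lie between -0.14 and 0.16, and Gadd45g at 1.17 lies farthest to the right.

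Other partners of Fos and Jun gave 0 calls among 9 tested genes, with a median log2 fold change of 0.05. Over all tested genes, 6.27% were called higher and 7.31% lower. The remaining Fos relatives were Fosl1, with 1.85 to 2.91 FPKM in WT against 2.89 to 3.60 FPKM in LRP1 KO (log2 difference 0.34; limma adjusted p = 0.0604), and Fosl2, at 19.5 to 25.9 and 22.1 to 24.7 FPKM (0.06; adjusted p = 0.632). At an unadjusted p under 0.05 the other partners were Mafk at 0.41 (adjusted p = 0.0595), Maff at 0.30 (adjusted p = 0.13) and, in the other direction, Atf7 at -0.25 (adjusted p = 0.0946), all named after their values were seen. Among relatives of Egr1, Nr4a1 and the Ier genes, 1 of 6 tested genes was called. Ier5l, a relative of Ier2, fell from 8.98 to 11.9 FPKM in WT to 5.66 to 8.25 FPKM in LRP1 KO (-0.52; limma adjusted p = 0.0240, 0.00819 to 0.0737 over the alternatives). Egr2 at -0.26 (adjusted p = 0.229) and Nr4a3 at -0.46 (adjusted p = 0.105) did not pass.

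Among 22 other tested primary response genes, 7 were called higher and 1 lower (6.27% and 7.31% of all tested genes). Their median was 0.16. Gadd45g, which binds a kinase upstream of JNK and p38, rose from 15.2 to 19.3 FPKM in WT to 48.4, 41.3, 49.2 and 29.4 FPKM in LRP1 KO libraries 1 to 4. Its log2 difference of 1.17 (SE 0.15; limma adjusted p = 0.00298) was larger than that of Jun or Atf3, and library 4 was again the lowest of LRP1 KO. Plk2, a polo-like kinase, rose from 31.8 to 37.8 FPKM to 46.0 to 67.5 FPKM (0.63; adjusted p = 0.0110), and Ctgf, a secreted matricellular protein, rose by 0.59 (adjusted p = 0.0335, 0.00763 to 0.0974 over the alternatives) with 1 LRP1 KO library inside the WT range. Phlda1 fell by 0.36 on the log2 scale (adjusted p = 0.0398, 0.0103 to 0.113 over the alternatives).

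The remaining 4 called genes of that list fall outside the rule for naming genes and were named after their values were seen. The transcription factor Myc rose from 16.1 to 18.7 FPKM to 21.4 to 29.9 FPKM (0.54; limma adjusted p = 0.0121). Cyr61, a relative of Ctgf, had an estimate of 0.50 (adjusted p = 0.0245), Klf4 of 0.44 (adjusted p = 0.0474) and Csrnp1 of 0.37 (adjusted p = 0.0210). Klf4, a Krüppel-like transcription factor, kept its call in only 4 of the 14 alternatives, Cyr61 in 7 and Csrnp1 in 10.

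Genes that shut the response down were called lower in 3 of 20 cases and higher in 0 (7.31% and 6.27% of all tested genes). Their median was -0.07. Zfp36l2, which binds AU-rich messenger RNA and promotes its decay, was measured at 77.4 to 84.6 FPKM in WT against 48.0, 49.4, 48.8 and 72.2 FPKM in LRP1 KO (-0.56; limma adjusted p = 0.0211). The difference was carried by LRP1 KO libraries 1 to 3, and library 4 came close to WT. Btg2, an antiproliferative gene, was lower by an estimate of -0.37 (adjusted p = 0.0283), and Trib1, a pseudokinase, by -0.35 (adjusted p = 0.0247). Each of the 3 lost its call in at least 4 of the 14 alternatives. Dusp1, the phosphatase that inactivates JNK and p38, had an estimate of 0.35 (adjusted p = 0.0817), and Zfp36, the close relative of Zfp36l2, of 0.08 (adjusted p = 0.448). Larger estimates that also did not pass included Zfp36l1 at -0.43 (adjusted p = 0.0559) and Spry1 at 0.43 (adjusted p = 0.0662). These 4 genes fall outside the rule for naming genes.

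Of 19 tested upstream kinases and transcription factors, 1 was called higher and 1 lower (6.27% and 7.31% of all tested genes). Their median was 0.11. Map2k1, the kinase MEK1, rose from 44.8 to 50.7 FPKM to 55.2 to 58.7 FPKM (0.27; limma adjusted p = 0.0162). Mapk3, the kinase ERK1 that MEK1 activates, fell from 116 to 123 FPKM to 94.9 to 101 FPKM (-0.28; adjusted p = 0.00847). Neither gene's groups overlapped, where 8.84% of all tested genes were higher and 10.7% lower without overlap. Mapk8, which encodes the Jun kinase JNK1, had an estimate of 0.03 (adjusted p = 0.866), and serum response factor, Srf, of 0.11 (adjusted p = 0.345), both named for their roles and outside the rule for naming genes.

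Heat shock genes, a separate stress program driven by HSF1, gave 1 higher call among 15 tested genes, against 6.27% of all tested genes. Their median was 0.06. The called gene was Hspd1, the mitochondrial chaperonin HSP60, which rose by 0.25 (limma adjusted p = 0.0330, 0.00658 to 0.0984 over the alternatives). The inducible Hspa1a and Hspa1b, near-identical copies whose reads cannot be told apart, had estimates of -0.23 (adjusted p = 0.0725) and -0.17 (adjusted p = 0.0983). For both, the LRP1 KO libraries lay below WT without overlap, as did 10.7% of all tested genes. In the other direction, Dnajb1 had an estimate of 0.23 (adjusted p = 0.0785) and Hspe1 of 0.22 (adjusted p = 0.0889). These uncalled genes fall outside the rule for naming genes.

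Summed marker levels separated the groups for macrophages and mural cells, while they overlapped for endothelial cells and fibroblasts. Macrophage markers rose, with 11 of 14 tested genes called higher and 0 called lower (6.27% and 7.31% of all tested genes), and their summed FPKM over 17 genes was 109, 133, 135 and 116 in WT and 438, 647, 278 and 582 in LRP1 KO. The estimates were below 0 for 2 of the 14, Cd14 at -0.47 (limma adjusted p = 0.136) and Mertk at -0.05, neither of them called and both named after their values were seen. The macrophage marker C1qb had 1.44 to 4.04 FPKM in WT against 13.4 to 40.5 FPKM in LRP1 KO. For Lyz2 the values were 24.0 to 54.3 and 129 to 334 FPKM. C1qa, the other tested marker of this list that was not called (limma adjusted p = 0.105), had 0.399 to 1.85 and 1.08 to 12.1 FPKM. It too was named after its values were seen. Of the mural cell markers, 4 of 8 tested genes were called higher, and their sum over 10 genes was 670 to 836 in WT and 1627, 1372, 1548 and 1040 in LRP1 KO. For endothelial markers all 18 tested estimates were above 0, with 2 called higher. The sum over 12 fibroblast markers was 2608 to 3752 in WT and 2190 to 3407 in LRP1 KO, with 3 of 11 tested genes called lower, among them Dpt at 23.4 to 43.9 and 2.26 to 23.4 FPKM, and 1 higher. No marker of the 4 lists was listed at 0 in all libraries.

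Jun and Atf3 are set here beside these sums, library by library. Within LRP1 KO, Jun, Atf3, the endothelial sum and the mural cell sum had the same order of libraries. Library 1 was the highest, then 3 and 2, and library 4 the lowest. The fibroblast sum ran in the reverse order, at 2190, 2899, 2658 and 3407 in LRP1 KO libraries 1 to 4. In LRP1 KO library 4 the endothelial sum of 201 was at the level of WT, while Jun (16.9 FPKM) and Atf3 (7.30 FPKM) were above every WT library. Across LRP1 KO libraries 1 to 3, Jun lay between 19.4 and 20.7 FPKM while the macrophage sum ranged from 278 to 647, and Jun was not highest where that sum was highest. The mural cell sum was above WT in all 4 LRP1 KO libraries. Whether the share of any cell type, ECs included, has a part in the rise of Jun and Atf3 was not tested.

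**Figure D5:**
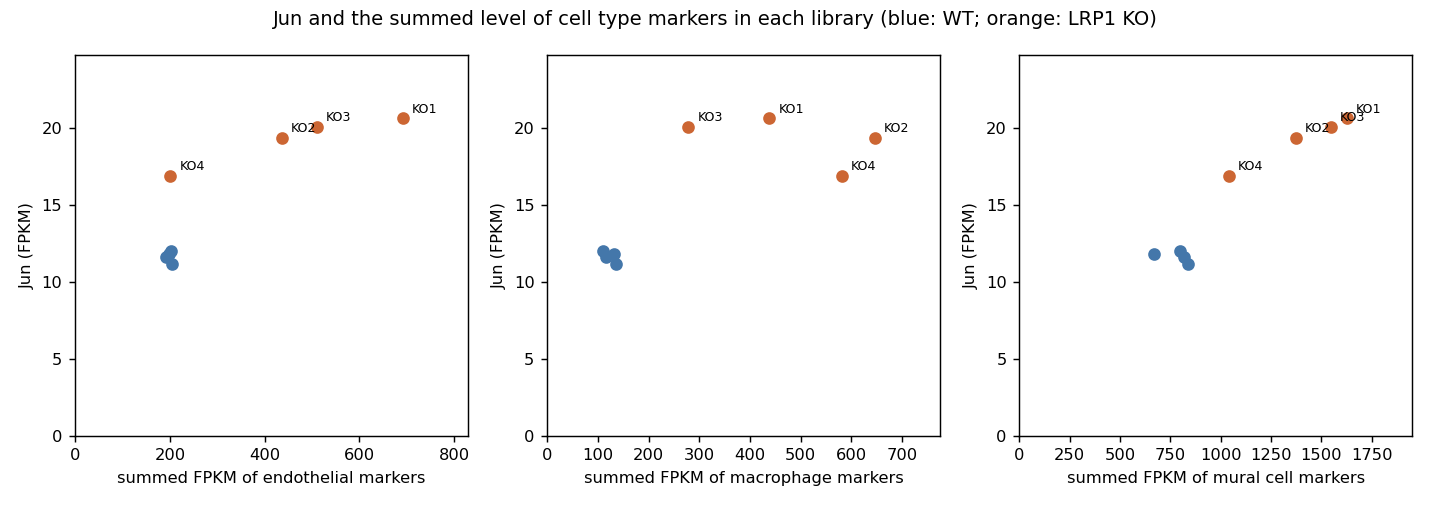
Jun in FPKM (vertical axis) against the summed FPKM of endothelial, macrophage and mural cell markers (horizontal axes), 1 point per library, WT in blue and LRP1 KO in orange with library numbers. LRP1 KO library 4 lies at the WT level of the endothelial sum (201) but above WT in Jun (16.9 FPKM), and the 4 LRP1 KO libraries lie above WT in both the macrophage and the mural cell sum.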

How the data were processed

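RNA was sequenced in 8 libraries, 4 LRP1 KO and 4 WT, grouped and numbered by their titles. The authors deposited 1 table of normalized values per gene, quantile normalized and taken here as FPKM. This unit is inferred: the labels name Cufflinks, and mt-Atp8 and mt-Atp6, mitochondrial genes of 204 and 681 bases that are transcribed together, had means of 3643 and 3531, but quantile-normalized TPM would look alike. The study's methods describe trimGalore, STAR and featureCounts on mm10, while the submitters' processing notes name TopHat2 and Cufflinks, and which of them made the deposited FPKM is not stated. Depth and read counts were therefore unknown, and precision rests on the spread between libraries alone.

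Values were analysed as log2(FPKM + 1). Genes with at least 1 FPKM in at least 4 libraries were kept (11389 of 22520) and fitted with limma 3.58.1 in R 4.3.3, with a single group term and a mean-dependent variance trend. Benjamini-Hochberg adjustment covered every tested gene, and a call needed an adjusted p under 0.05. Fold changes on this scale understate those of low genes. For each member, all 70 assignments of libraries to groups gave an exact permutation test, two-sided (scipy 1.17.1). The limma fit, and not the permutation test, was tried on simulated data. Where a symbol had several identifiers, the one with the highest mean was used. The alternatives were a pseudocount of 0.1, no filter, a mean of at least 5 FPKM, median-ratio rescaling, no variance trend, the replicate number as a block, and each library left out.

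The members and gene lists, written by hand from general knowledge, were chosen with earlier results of these data known. The lists cover partners of Fos and Jun, relatives of the EGR, NR4A and IER genes, other primary response genes, feedback inhibitors, upstream kinases and transcription factors, heat shock genes, and markers of endothelial cells, macrophages, fibroblasts and mural cells. From the related lists, called genes were named if at most 6, otherwise the 3 that rose and the 3 that fell most, plus up to 2 relatives of a member that were not called. Uncalled genes named outside this rule are marked as such in the text. Gene positions are from GENCODE M21 (GRCm38) and promoter sequences from RefSeq (GRCm38.p6).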

Additional observations from a re-analysis of the deposited data

Results flagged for a closer look

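In 3 of 74 sets of 4 libraries, over 37 genes, 1 library lay so far from the others that the gap to its nearest neighbour, divided by the whole range of the group, was above Dixon's critical value for 4 samples. Chance alone flags about 1 in 20 groups. Ier3 was highest in LRP1 KO library 1 (ratio 0.923), at 51.4 FPKM against 42.4 to 43.1 FPKM in the other 3. Zfp36l2 was highest in LRP1 KO library 4 (ratio 0.941), at 72.2 FPKM against 48.0 to 49.4 FPKM. Zfp628, a gene whose variation was close to that of the members' mean, was highest in LRP1 KO library 4 (ratio 0.870), at 3.47 FPKM against 3.25 to 3.28 FPKM.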

How the results depend on the processing

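Jun and Atf3 were called in all 14 alternatives, and none of the other 7 tested members was called in any. The estimates of the tested members kept their signs, except that Jund was 0.029 without WT library 2, in a range of -0.14 to 0.03 over the fits that left out 1 library. Such fits gave 0.64 to 0.73 for Jun, 0.69 to 0.89 for Atf3, 0.05 to 0.18 for Fos, 0.01 to 0.10 for Junb, -0.24 to -0.12 for Egr1, 0.06 to 0.14 for Ier2, 0.15 to 0.28 for Ier3 and -0.22 to -0.10 for Nr4a1.

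The background moved more than the members. Of 11389 tested genes, 1547 were called, from 512 without WT library 2 to 3021 without LRP1 KO library 4, with 280 to 1436 higher and 232 to 1585 lower in the same fits, so that 12.6% of tested genes were called higher without LRP1 KO library 4. Without the filter on low values the calls in the related lists were 9 in place of 15, and they were 4 to 33 when 1 library was left out. With the replicate block the calls were 1013 in all and 520 lower, and Jun (adjusted p = 0.0105) and Atf3 (adjusted p = 0.0214) were still called. Same-numbered libraries correlated at -0.312 to 0.34 in their deviations from the group means. By this measure 2 of 4 WT and 3 of 4 LRP1 KO libraries correlated best with their own number. The main fit was set up without pairs, and these values do not settle whether the numbers are pairs. The cause of these changes was not tested.

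Quantile normalization hides depth and total RNA, and no counting error was computed. With 4 libraries a group the exact test cannot go below 0.0286, and the intervals of the members that were not called span differences of up to 0.42 on the log2 scale. With libraries labelled as mixed heart, liver and lung cells, a difference in 1 organ cannot be told apart from one in all 3.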

Other observations

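Batf3, a leucine-zipper partner of Jun that is best known from dendritic cells, did not pass the filter on low values. The WT libraries had 0.430, 1.36, 0.635 and 0.636 FPKM. The LRP1 KO libraries had 0.205, 0.123, 0.240 and 0.424 FPKM. The groups did not overlap, by a narrow margin for LRP1 KO library 4 (exact permutation p = 0.0286, n = 4 each). Groups without overlap always give this p-value here, so it adds nothing to the lack of overlap. Of all tested genes, 10.7% were lower without overlap. The gene was singled out after its values were seen.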
